A study of Mus musculus with 48 samples.

Results

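Mapk3 and 7 other genes of the ERK cascade were followed in brain tissue of mice with a 7qF3 deletion on chromosome 7 and of wild-type controls. The 8 genes are Mapk3, Map2k1, Map2k2, Braf, Dusp6, Spry2, Spry4 and Etv5, chosen by name for their place in the cascade, and each matched 1 identifier among the 47069 genes of the count table. RNA sequencing covered cortex, striatum and cerebellum of 16 animals, and each animal gave 1 library of each tissue, 48 in all. The 8 deletion animals carry the 7qF3 stretch that is syntenic to human 16p11.2 as a deletion, and the 8 controls are labelled wild type. All animals were of the mixed C57BL/6N:129Sv background, and each genotype had 4 males and 4 females. The labels do not state whether 1 or both copies were lost, and their age field holds a date that parts males from females, so effects of date and of sex cannot be told apart.

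In the ERK cascade, a receptor tyrosine kinase activates Ras, Ras recruits Raf kinases such as BRAF, Raf phosphorylates the kinases MEK1 (Map2k1) and MEK2 (Map2k2), and these phosphorylate ERK kinases such as ERK1 (Mapk3). Active ERK induces its own brakes, among them the ERK phosphatase DUSP6 and the Sprouty proteins, and drives ETS transcription factors such as ETV5, so transcripts of these genes are widely read as a sign of ERK activity. In neurons the cascade is known for its part in synaptic plasticity. The measurements below are of transcripts only, not of kinase activity.

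The libraries held 29244745 to 60751792 counts on genes (median 32232112) and 22220 to 25542 detected genes. Values are given as CPM (counts scaled to 1000000 per library, on TMM library sizes within 1 tissue). Levels of different genes or tissues are compared as RPKM, that is CPM over all 48 libraries per 1000 bases of summed exon length. A gene was called where edgeR's quasi-likelihood test gave an adjusted p under 0.05 (Benjamini-Hochberg over all genes tested in that comparison). The dissections varied within both genotypes. The mean log2 CPM of 11 striatal markers in striatum libraries was 4.88 to 8.63 in deletion animals and 4.37 to 7.98 in wild type, and in cortex libraries it was 5.11 to 7.48 in deletion animals and 3.12 to 6.99 in wild type. The mean of 10 cortical markers in striatum libraries was 1.497 to 4.08 in deletion animals and 1.65 to 5.52 in wild type. In cerebellum, 11 cerebellar markers averaged 6.31 to 8.76 in deletion animals and 7.83 to 9.02 in wild type. One striatum library, of the deletion female D810, had more thalamic than striatal marker signal (5.88 against 4.88).

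Mapk3 (ENSMUSG00000063065) lies at chromosome 7, 126759601 to 126765819 on the plus strand (GRCm38, GENCODE vM21), inside the stretch from Slx1b to Mylpf (126689468 to 127214298) in which 20 of 27 protein-coding genes tested in cortex, 19 of 29 in striatum and 20 of 29 in cerebellum were called, with log2 fold changes below 0. No other annotated gene overlaps it. The other 7 members lie outside this stretch, on other chromosomes. Braf overlaps Ndufb2 on the opposite strand and a ferritin pseudogene on its own strand, and Map2k1 overlaps Uchl4 on the opposite strand. Whether reads were counted by strand is not given in the sources used here, so reads of these overlapping genes may have been shared.

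The sequences just upstream of the transcription start sites are shown for Dusp6, Spry2 and Etv5, whose levels moved together among libraries, and for Map2k1 and Braf as upstream kinases. They are the 250 bases before the start site from RefSeq (GRCm38.p6), 5′ to 3′ on the gene's strand. An entry was found for 6 members. Mapk3 had none, and Spry4 was not looked up. Etv5 had 2 entries, and the 1 nearest the GENCODE start is shown. The windows of Etv5 and Map2k1 lie partly inside the GENCODE genes, whose 5′ ends are at 22439719 and 64253631. Capitals mark matches on either strand to the ETS core CCGGAA, the CRE core TGACG and the AP-1 site TGANTCA.
Dusp6, chr10:99262981-99263230, plus strand: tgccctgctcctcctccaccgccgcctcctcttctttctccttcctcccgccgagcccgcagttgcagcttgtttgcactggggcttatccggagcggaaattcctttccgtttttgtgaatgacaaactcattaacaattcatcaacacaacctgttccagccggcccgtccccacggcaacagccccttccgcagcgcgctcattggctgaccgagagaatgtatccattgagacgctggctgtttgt
Spry2, chr14:105896820-105897069, minus strand: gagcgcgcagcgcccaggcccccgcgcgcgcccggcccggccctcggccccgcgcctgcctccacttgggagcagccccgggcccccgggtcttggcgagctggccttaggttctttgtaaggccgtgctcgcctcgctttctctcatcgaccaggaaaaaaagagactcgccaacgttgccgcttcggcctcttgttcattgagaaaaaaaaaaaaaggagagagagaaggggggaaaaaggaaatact
Etv5, chr16:22439571-22439820, minus strand: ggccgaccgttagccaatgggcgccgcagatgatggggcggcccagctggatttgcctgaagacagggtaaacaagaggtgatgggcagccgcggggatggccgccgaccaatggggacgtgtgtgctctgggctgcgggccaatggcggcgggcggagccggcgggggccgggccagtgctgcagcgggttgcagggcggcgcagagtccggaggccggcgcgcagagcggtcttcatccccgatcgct
Map2k1, chr9:64253606-64253855, minus strand: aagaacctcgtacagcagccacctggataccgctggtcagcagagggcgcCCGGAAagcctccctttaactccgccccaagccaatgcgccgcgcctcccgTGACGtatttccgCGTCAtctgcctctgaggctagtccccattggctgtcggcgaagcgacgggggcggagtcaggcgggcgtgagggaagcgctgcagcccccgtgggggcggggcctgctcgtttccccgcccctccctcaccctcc
Braf, chr6:39725464-39725713, minus strand: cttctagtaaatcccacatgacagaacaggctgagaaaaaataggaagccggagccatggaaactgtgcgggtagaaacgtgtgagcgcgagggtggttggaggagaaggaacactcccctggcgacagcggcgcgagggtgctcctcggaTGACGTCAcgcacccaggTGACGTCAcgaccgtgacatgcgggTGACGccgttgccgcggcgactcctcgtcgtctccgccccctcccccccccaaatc
The windows of Dusp6, Spry2 and Etv5, and that of Map2k2, held no match to these 3 motifs. Map2k1 held 1 ETS core and 2 CRE cores. Braf held 5 CRE cores, 4 of them within 2 full CRE palindromes, TGACGTCA. Of 32851 RefSeq windows of this length, 12.03% held the ETS core, 17.8% the CRE core, 1.55% the full CRE and 6.75% the AP-1 site. These matches describe letters in a window and say nothing of binding.

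ERK1 transcript was lower in the deletion animals in all 3 tissues in value, and the call was made in striatum and cerebellum. In striatum, Mapk3 was at 75.7, 100 and 125 CPM (lowest, median and highest of 8 libraries) in deletion animals, against 135, 185 and 246 CPM in wild type. The groups did not overlap there, as for 0.093% of all genes tested in that direction (16 of 17198). Within the stretch from Slx1b to Mylpf, 16 of 33 genes tested had no overlap either, so this was not particular to Mapk3. Mapk3 fell by 0.92 ± 0.12 on the log2 scale in striatum (SE, 8 animals each; edgeR adjusted p = 0.00111), with a 95% interval of -1.16 to -0.67. In cerebellum it was at 46.1, 72.2 and 99.6 CPM in deletion animals, against 93.3, 138 and 189 CPM in wild type. Here 7 of 8 deletion libraries lay below every wild-type library, and the deletion female D809 (99.6 CPM) lay just above the wild-type male W805 (93.3 CPM). Mapk3 fell by 0.95 ± 0.16 in cerebellum (interval -1.28 to -0.62; edgeR adjusted p = 0.0140). Since these are bulk tissues, fewer cells that hold the transcript and less transcript per cell cannot be told apart.

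In cortex the values of Mapk3 went the same way but spread more widely. They were 80.2, 110 and 186 CPM in deletion animals, against 116, 188 and 301 CPM in wild type. The groups overlapped: 5 of 8 deletion libraries lay below every wild-type library, and 0 of 8 lay above the wild-type mean. The log2 fold change was -0.76 ± 0.21 (interval -1.19 to -0.32), with an unadjusted edgeR p of 0.00204 and an adjusted p of 0.860, so Mapk3 was not called in cortex. In 1 edgeR fit of all 48 libraries, which shares 1 estimate of the spread over tissues, the cortical value was -0.76 with an adjusted p of 0.0402, beside 0.124% of all genes called lower in that fit. That fit had no term for the animal, so libraries of 1 animal entered as independent although their deviations were correlated. Of all genes tested, 0.119% were called lower in cortex, 0.116% in striatum and 0.126% in cerebellum.

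**Figure D1:**
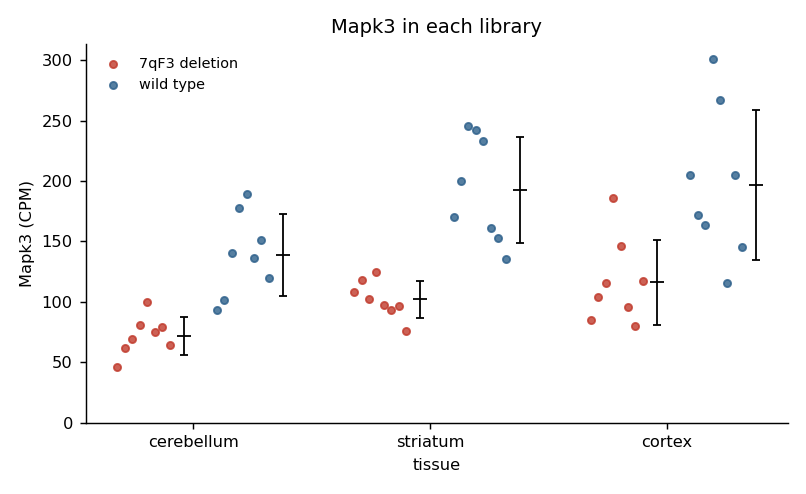
Mapk3 in CPM (vertical axis, linear from 0) in each library of cerebellum, striatum and cortex, deletion libraries in red to the left of wild-type libraries in blue, with mean and SD as black marks (8 libraries per group). The groups are apart in striatum, touch in cerebellum and overlap in cortex.

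Set beside its deleted neighbours, the fall of Mapk3 was not among the deeper ones. Over the protein-coding genes of the stretch that were tested, the median log2 fold change was -1.08 in cortex (27 genes), -1.04 in striatum (29 genes) and -1.02 in cerebellum (29 genes). Counted from the deepest fall, Mapk3 was number 27 of 27 in cortex, 27 of 29 in striatum and 21 of 29 in cerebellum. The SE of Mapk3 was 0.21 in cortex against a median SE of 0.17 for these genes, 0.12 against 0.16 in striatum and 0.16 against 0.17 in cerebellum. The interval of Mapk3 includes the median of the stretch in each tissue, so a shallower fall than that of its neighbours was not shown.

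The genotype effect on Mapk3 had the same sign in both sexes and in the 3 tissues. In males alone the log2 fold change was -0.77 in cortex, -0.93 in striatum and -0.98 in cerebellum, and in females alone it was -0.74, -0.91 and -0.91. The interaction of sex and genotype had unadjusted edgeR p-values of 0.935, 0.980 and 0.813. For it 0 of 8 members, and 0.0% of all genes, were called in any tissue, and 0 of 8 members had an unadjusted p under 0.05. Between tissues, the effect on Mapk3 differed by -0.15 ± 0.24 for striatum minus cortex, by -0.18 ± 0.24 for cerebellum minus cortex and by -0.03 ± 0.24 for cerebellum minus striatum. None of these differences was called, and their intervals (-0.63 to 0.33, -0.66 to 0.30 and -0.51 to 0.45) leave room for a difference of either sign. The fit had no term for the animal, so these SEs and intervals do not use the pairing of tissues within animals.

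None of the other 7 members was called in cortex, striatum or cerebellum. This count of 0 stands against 0.13% of all genes called in either direction in cortex, 0.128% in striatum and 0.138% in cerebellum. Protein-coding genes of the deleted stretch made up 20 of the 22 genes called in cortex, 19 of 22 in striatum and 20 of 23 in cerebellum. The share called outside the stretch, where the 7 members lie, was thus lower still and is not given here. None of the 7 had an unadjusted p under 0.05, and none was called with DESeq2 (beside 0.106%, 0.16% and 0.103% of all genes) or under any other alternative tried. Higher calls alone made up 0.0119% of genes in cortex, 0.0116% in striatum and 0.012% in cerebellum. The intervals show which sizes of change these data leave room for. These genes lie elsewhere in the genome (GRCm38): Map2k1 at chromosome 9, 64185770 to 64253631 (minus strand), Map2k2 at chromosome 10, 81105915 to 81133975 (plus), and Braf at chromosome 6, 39603237 to 39725463 (minus). Dusp6 lies at chromosome 10, 99263231 to 99267489 (plus), Spry2 at chromosome 14, 105891947 to 105896819 (minus), Spry4 at chromosome 18, 38586247 to 38601415 (minus), and Etv5 at chromosome 16, 22381309 to 22439719 (minus).

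**Figure D2:**
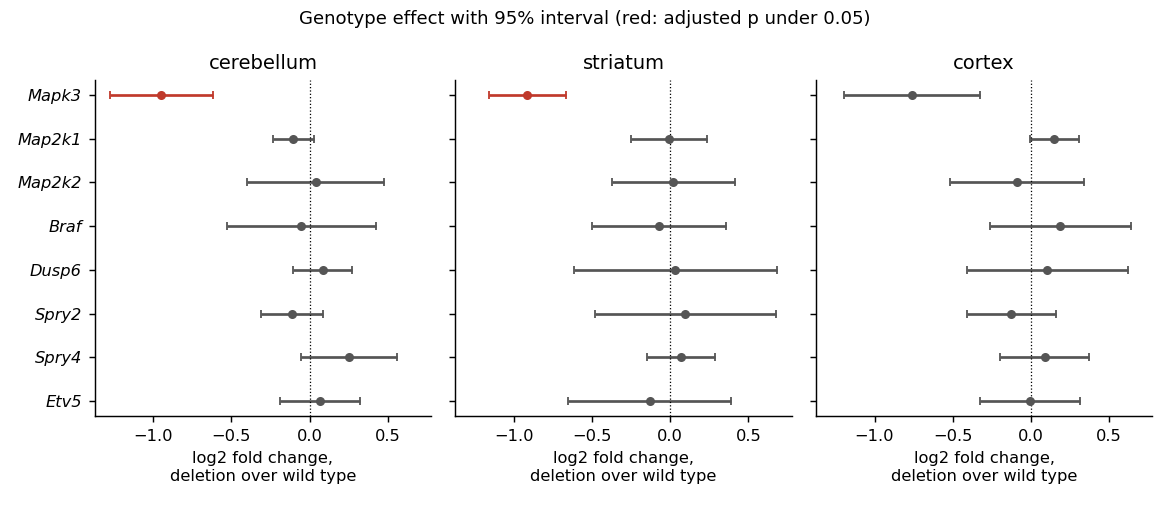
Log2 fold change, deletion over wild type, with its 95% interval (horizontal axis) for the 8 members (rows) in cerebellum, striatum and cortex, from edgeR with 8 animals per group. Mapk3 is the only member that is called (red), in striatum and cerebellum, and the other 7 members have intervals that include 0.

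The MEK kinases differed in how tightly they were measured. Map2k1 (MEK1) was at 263, 281 and 299 CPM in deletion cortex, against 207, 251 and 302 CPM in wild-type cortex. Each of the 8 deletion values exceeded 253 CPM, the wild-type mean, yet their range lay inside that of wild type. The log2 fold change was 0.15 ± 0.07 (interval -0.01 to 0.31; edgeR unadjusted p = 0.0593, adjusted p = 0.965). In striatum Map2k1 was at 204, 264 and 303 CPM in deletion animals against 196, 251 and 328 CPM in wild type, a log2 fold change of -0.01 ± 0.12 (interval -0.25 to 0.24). In cerebellum Map2k1 was at 132, 150 and 159 CPM in deletion animals, against 144, 160 and 172 CPM in wild type, with a log2 fold change of -0.10 ± 0.06 (interval -0.24 to 0.03). Map2k1 was the member whose genotype effect differed most between cerebellum and cortex, by -0.25 ± 0.12 (unadjusted p = 0.0396), and this was not called.

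Map2k2 (MEK2) varied more among animals of 1 genotype. It was at 70.5, 104 and 167 CPM in deletion cortex against 79.2, 119 and 170 CPM in wild-type cortex. In striatum it was at 74.5, 115 and 162 CPM in deletion animals against 72.8, 92.0 and 178 CPM in wild type, and in cerebellum at 64.2, 116 and 162 CPM against 53.8, 119 and 153 CPM. The groups overlapped almost fully. The log2 fold changes were -0.09 ± 0.20 in cortex, 0.02 ± 0.19 in striatum and 0.04 ± 0.21 in cerebellum, with intervals reaching at most 0.51 on either side of 0. Map2k2 was 19.3 ± 5.03% of the RPKM of both MEK transcripts in deletion cortex and 22.2 ± 5.28% in wild-type cortex. In striatum this share was 21.1 ± 5.48% in deletion animals and 20.5 ± 7.44% in wild type, and in cerebellum 30.8 ± 6.95% and 28.8 ± 6.71%, differences within 1 SD. The size of the share depends on the length used. Summed exons span 5663 bases for Map2k2 and 3391 for Map2k1, while the longest transcripts have 2405 and 2436 bases. On transcript length the share of Map2k2 would be higher.

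Braf, the Raf kinase above the MEKs, was at 57.5, 90.7 and 151 CPM in deletion cortex against 63.1, 82.0 and 128 CPM in wild-type cortex. Striatal Braf was at 56.4, 95.4 and 135 CPM in deletion animals against 45.9, 103 and 141 CPM in wild type. In cerebellum it was at 53.1, 69.9 and 147 CPM in deletion animals against 52.4, 73.2 and 165 CPM in wild type. The ranges overlapped in every tissue. The log2 fold changes were 0.19 ± 0.21, -0.07 ± 0.20 and -0.05 ± 0.22 in cortex, striatum and cerebellum, with intervals of -0.26 to 0.64, -0.50 to 0.36 and -0.53 to 0.42.

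The feedback genes and the output gene Etv5 showed no genotype difference beyond their spread. Dusp6 (the ERK phosphatase) was at 32.2, 46.4 and 88.3 CPM in deletion cortex against 30.5, 47.9 and 71.8 CPM in wild-type cortex. In striatum it was at 13.2, 18.2 and 42.6 CPM in deletion animals against 8.55, 20.009 and 40.8 CPM in wild type, and in cerebellum at 12.9, 16.3 and 20.8 CPM against 13.6, 15.1 and 18.4 CPM. The log2 fold changes were 0.11 ± 0.24 in cortex, 0.03 ± 0.31 in striatum and 0.08 ± 0.09 in cerebellum. Cerebellum thus gave the narrowest interval for Dusp6, -0.10 to 0.27, while striatum left room for -0.62 to 0.68.

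Striatal Dusp6 was the member with the widest gap between the sexes in value. Its log2 fold change was 0.56 ± 0.41 in males alone and -0.49 ± 0.34 in females alone, a difference of -1.05 ± 0.56 (edgeR interaction, unadjusted p = 0.0811, not called). The male with the highest striatal Dusp6, D801 (42.6 CPM), also had the highest mean of striatal markers of all striatum libraries (8.63), while the highest wild-type library, the female W815 (40.8 CPM), had the highest mean of cortical markers (5.52). The part of dissection in this difference was not tested.

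Spry2, a Sprouty inhibitor of receptor signalling, was at 27.9, 47.5 and 53.6 CPM in deletion cortex against 35.3, 50.5 and 55.9 CPM in wild-type cortex. Striatal Spry2 was at 18.5, 27.7 and 72.0 CPM in deletion animals against 18.4, 30.4 and 46.0 CPM in wild type. The value of 72.0 CPM was that of D801 again. In cerebellum Spry2 was at 29.1, 38.5 and 46.2 CPM in deletion animals against 35.6, 42.1 and 47.1 CPM in wild type. The log2 fold changes were -0.12 ± 0.13, 0.10 ± 0.27 and -0.11 ± 0.09 in cortex, striatum and cerebellum.

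Spry4, another Sprouty gene, was at 10.9, 15.6 and 21.2 CPM in deletion cortex against 12.7, 14.8 and 18.5 CPM in wild-type cortex. Striatal levels were 14.1, 18.0 and 21.2 CPM in deletion animals against 14.2, 17.9 and 20.7 CPM in wild type. In cerebellum it was at 16.2, 20.4 and 34.2 CPM in deletion animals against 14.8, 19.7 and 22.9 CPM in wild type. The deletion males D801 and D802 stood above all other cerebellum libraries, at 34.2 CPM each. The log2 fold change of 0.25 ± 0.14 in cerebellum (interval -0.06 to 0.56; unadjusted p = 0.101) was the largest in size among these 7 members and was not called. It was 0.09 ± 0.13 in cortex and 0.07 ± 0.10 in striatum.

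Etv5, an ETS transcription factor induced by ERK, was at 71.0, 92.5 and 124 CPM in deletion cortex against 71.8, 96.0 and 124 CPM in wild-type cortex, a log2 fold change of -0.01 ± 0.15. Striatal Etv5 was at 31.8, 46.1 and 83.8 CPM in deletion animals against 26.3, 47.1 and 86.9 CPM in wild type (-0.13 ± 0.25). In cerebellum it was at 41.2, 53.8 and 75.3 CPM in deletion animals against 43.3, 52.6 and 65.3 CPM in wild type (0.07 ± 0.12). The groups overlapped in every tissue, and the intervals were -0.33 to 0.31, -0.65 to 0.39 and -0.19 to 0.32.

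**Figure D3:**
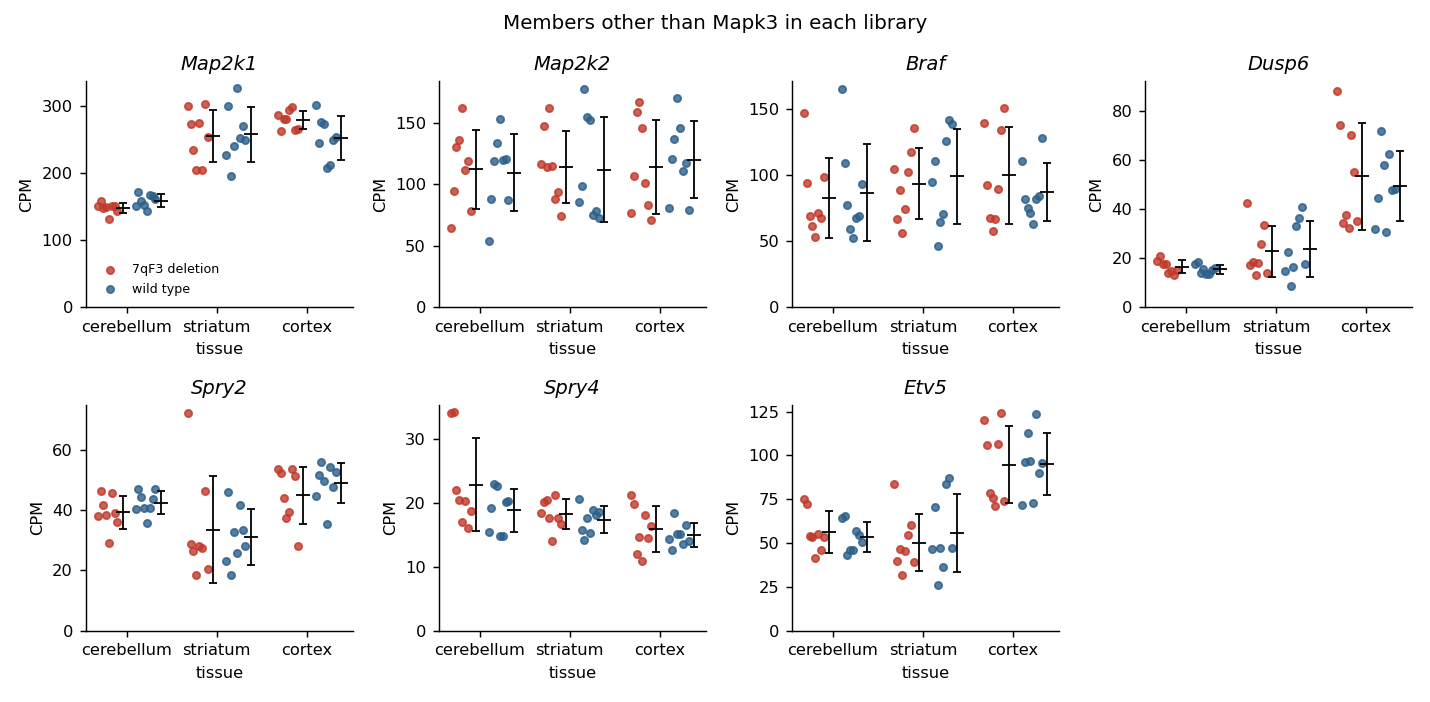
Level in CPM (vertical axes, linear from 0) of the 7 members other than Mapk3 in each library of cerebellum, striatum and cortex, deletion libraries in red to the left of wild-type libraries in blue, with mean and SD as black marks (8 libraries per group). Deletion and wild-type ranges overlap for each gene in every tissue.

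The levels of Map2k2 and Braf among animals moved with how each library weighted short against long transcripts. A gene length score was computed for each library as the mean log2 CPM of the shortest minus that of the longest protein-coding genes outside the stretch (2936 genes each in cortex), centred on 0 in each tissue. It ran from -0.98 to 0.72 in deletion cerebellum and from -1.07 to 0.68 in wild-type cerebellum, with medians of 0.23 and 0.17. In striatum the medians were 0.01 in deletion animals and -0.19 in wild type, and in cortex -0.0039 and 0.18. Map2k2 was high and Braf low where the score was high, in both genotypes. The cerebellum library of D801, with the lowest score among deletion animals, had 64.2 CPM of Map2k2 and 147 CPM of Braf, and that of D809, with the highest score, had 162 CPM of Map2k2 and 53.1 CPM of Braf. Map2k1 varied less between these libraries, with 150.5 CPM in D801 and 132 CPM in D809. Braf, with 13862 bases of exon, is itself among the long genes of the score, while Mapk3 (2257 bases) and Map2k2 (5663) are not used in it. Spry2 (2087 bases) is among its short genes.

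Mapk3 moved along the same axis within each genotype in cerebellum and striatum, on separate lines. At the low end in cerebellum, Mapk3 was at 46.1 CPM in the deletion male D801 (score -0.98) and at 93.3 CPM in the wild-type male W805 (score -1.07). At the high end it was at 99.6 CPM in the deletion female D809 (0.72) and at 189 CPM in the wild-type female W813 (0.68). In striatum it was at 75.7 CPM in D812 (-0.67) against 153 CPM in W815 (-0.74), and at 125 CPM in D804 (0.62) against 242 CPM in W808 (0.73). Libraries of like score thus differed by genotype at both ends. In cortex the lines were less clear: the deletion female D812 had 117 CPM at the lowest score (-0.93), and among wild types W805 had 205 CPM at -0.43 while W814 had 116 CPM at 0.18.

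With this score as a covariate, an alternative chosen after seeing the data, Mapk3 fell by 0.93 ± 0.05 in striatum (edgeR adjusted p = 5.67e-08, beside 0.151% of all genes called lower) and by 0.97 ± 0.05 in cerebellum (adjusted p = 1.89e-08, beside 0.144%). The SE was 0.12 and 0.16 without it. In cortex the value was -0.68 ± 0.18 (adjusted p = 0.449, beside 0.148%), with an SE of 0.21 without the score. Map2k2 then had 0.04 ± 0.05 in cortex, 0.02 ± 0.06 in striatum and -0.0034 ± 0.05 in cerebellum, and Braf had -0.0097 ± 0.03, 0.02 ± 0.06 and -0.00043 ± 0.04, so their intervals narrowed about 0 and neither was called. Dusp6, Spry2 and Etv5 were not called either, with SEs in striatum of 0.30, 0.26 and 0.20. The source of the score was not tested.

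**Figure D4:**
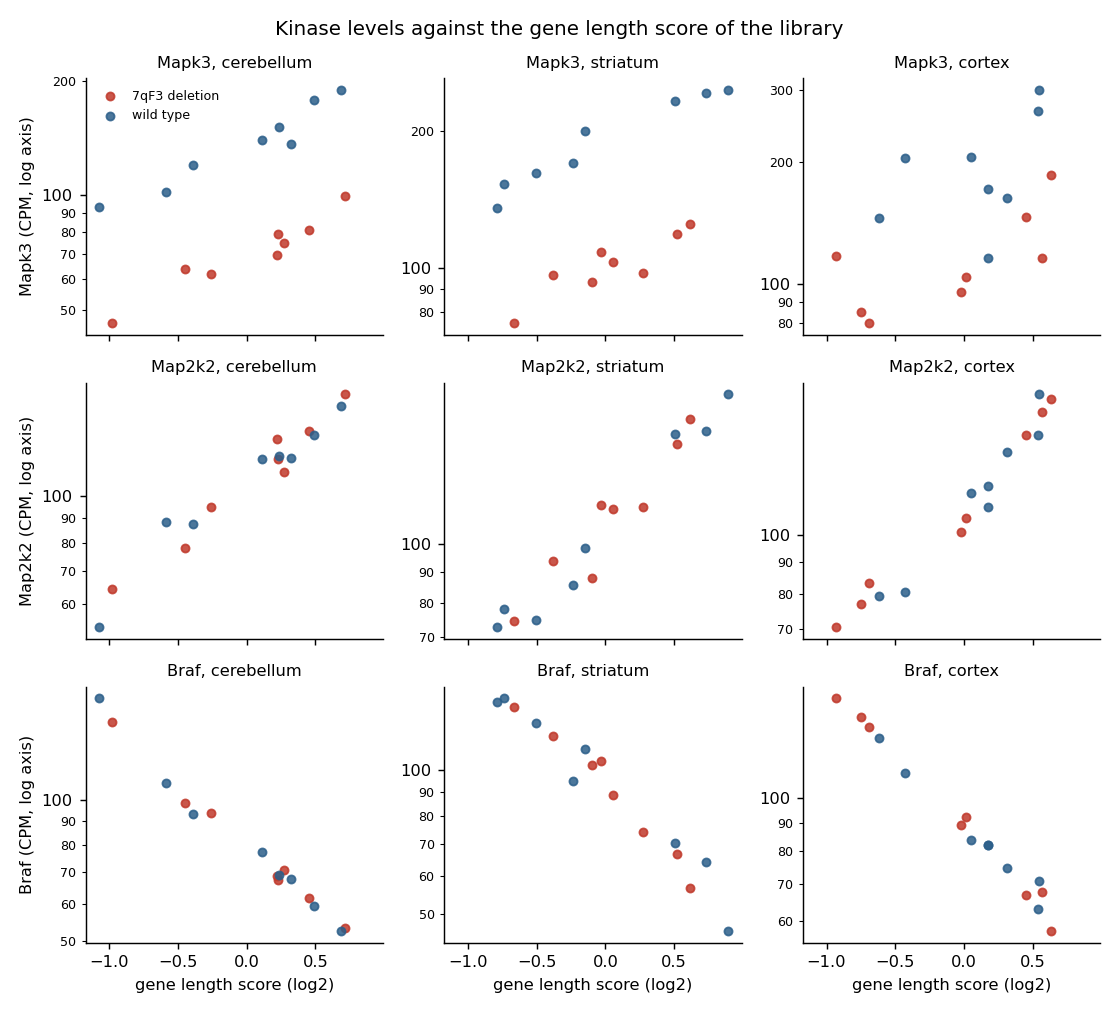
CPM on a log axis (vertical) of Mapk3, Map2k2 and Braf (rows) against the gene length score of the library (horizontal, log2 units) in cerebellum, striatum and cortex (columns), 1 point per library, deletion in red and wild type in blue. Map2k2 climbs and Braf declines with the score with both genotypes on 1 line, whereas Mapk3 lies on separate deletion and wild-type lines in cerebellum and striatum and scatters in cortex.

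Among the 48 libraries, the genes whose deviations from their group mean were most like those of Mapk3 were Ninj1 (Pearson r = 0.900), Morn4 (0.877), Ech1 (0.869), Rpa2 (0.869) and Mmd2 (0.863), named from outside the deleted stretch, of 15091 genes compared. Map2k2 was number 142 in this order, with r = 0.808, and Braf stood near the opposite end at -0.789. Between members, Map2k2 and Braf had r = -0.962, Dusp6 and Etv5 0.828, Spry2 and Etv5 0.789, and Dusp6 and Spry2 0.746. These values describe libraries that share the length axis and the dissections, and each animal gave 3 of the points. Across 15048 genes, likeness to Mapk3 went with short transcripts (Spearman rho = -0.638 with transcript length) and with high GC content (0.462). Genes are not independent replicates. The longest annotated transcript of Mapk3 has 1800 bases and 57.6% GC, that of Map2k2 2405 bases and 60.4%, and that of Braf 9728 bases and 42.6%. Length did not sort all members. Spry2 (2087 bases, 46.2% GC), Map2k1 (2436, 51.2%) and Dusp6 (2796, 49.0%) had r of -0.297, -0.039 and -0.404 with Mapk3. Etv5 (3975 bases, 51.8%) and Spry4 (4755, 51.2%) had -0.586 and -0.293.

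In wild-type brain, 5 of the 8 members were called between at least 1 pair of tissues. The share of all genes called in at least 1 pair was not computed. Between cerebellum and cortex alone, 24.7% of all genes were called lower and 24.2% higher, so this count is not read as particular to the members. ERK1 transcript was lowest in cerebellum: Mapk3 averaged 59.7 ± 14.7 RPKM in cerebellum, 84.0 ± 19.3 in striatum and 90.5 ± 28.8 in cortex (SD, n = 8 each). It was lower in cerebellum than in striatum by -0.49 ± 0.19 on the log2 scale (edgeR adjusted p = 0.0361) and than in cortex by -0.60 ± 0.19 (adjusted p = 0.0113), and striatum and cortex did not differ beyond their spread (-0.11 ± 0.19). Wild-type striatum and cortex libraries were not fully apart in their markers. Striatal markers averaged higher in the cortex than the striatum library of W805 (6.99 against 4.58), W815 (6.44, 5.44) and W816 (6.96, 6.84). In the other wild-type animals they were lower. Cortical markers in striatum reached 5.52 (W815), near the lowest wild-type cortex library (5.54, W805). The part of dissection in any contrast of striatum and cortex, here or below, was not tested.

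Map2k1 was also lower in cerebellum, at 45.6 ± 2.62 RPKM, against 74.8 ± 11.8 in striatum and 77.3 ± 10.1 in cortex, with log2 fold changes of -0.73 ± 0.10 and -0.77 ± 0.10 (edgeR adjusted p = 1.23e-06 and 4.88e-07). Map2k2 (18.8 to 22.0 RPKM on average), Braf (6.07 to 7.01 RPKM) and Spry4 (3.28 to 3.85 RPKM) were not called between any pair of tissues, with SEs of up to 0.25 for Braf. Between cerebellum and cortex 4 of 8 members were called, all 4 lower, beside 24.7% of all genes called lower and 24.2% called higher. Between cerebellum and striatum 4 of 8 were called, 3 lower and 1 higher, beside 25.5% of all genes called lower and 22.4% called higher.

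Dusp6, Etv5 and Spry2 had their highest mean in cortex, and Spry4 its lowest. Dusp6 averaged 7.44 ± 3.64 RPKM in striatum and 16.4 ± 4.85 in cortex, a difference of -1.18 ± 0.25 on the log2 scale (edgeR adjusted p = 0.00161), and 4.79 ± 0.560 RPKM in cerebellum, -1.78 ± 0.25 relative to cortex (adjusted p = 2.33e-06). Cerebellum was lower than striatum for Dusp6 by -0.60 ± 0.25 (adjusted p = 0.0479). With the animal as a replicate block this value was -0.56 ± 0.27 and was not called (adjusted p = 0.0813, beside 28.9% of all genes called lower). Etv5 averaged 12.7 ± 2.01 RPKM in cerebellum and 13.3 ± 5.30 in striatum, against 24.05 ± 4.57 in cortex, and both were called lower than cortex (-0.93 ± 0.19 and -0.86 ± 0.19). Spry2 averaged 14.7 ± 4.33 RPKM in striatum and 24.3 ± 3.32 in cortex (-0.73 ± 0.14, adjusted p = 0.00108). In cerebellum, at 19.7 ± 1.71 RPKM, it was higher than in striatum (0.42 ± 0.14, adjusted p = 0.0198). Against cortex, cerebellar Spry2 was -0.31 ± 0.14 and not called (adjusted p = 0.0789), and with the animal as a replicate block it was -0.30 ± 0.12 and called (adjusted p = 0.0438, beside 28.4%). Between striatum and cortex, 3 of 8 members were called, all 3 lower, beside 8.67% of all genes called lower.

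The wider pathway was followed with 132 genes in 10 lists, of which 131 were tested in cortex, 131 in striatum and 129 in cerebellum. Besides Mapk3, 1 of them was called: Fos, the immediate early transcription factor gene, rose in striatum. Fos was at 19.6, 34.3 and 42.9 CPM in deletion striatum, against 10.6, 16.4 and 20.3 CPM in wild-type striatum, and only the lowest deletion library, of D809, lay within the wild-type range. It rose by 1.04 ± 0.16 on the log2 scale (interval 0.69 to 1.38; edgeR adjusted p = 0.0120), beside 0.0116% of all genes called higher in striatum. Without Mapk3, an unadjusted p under 0.05 was reached by 1 listed gene in cortex, 3 in striatum and 2 in cerebellum, each of which is named here. Genes that do not change pass this threshold at a nominal rate of 0.05, so these counts are not an excess. The share of all genes that passed it is not given here. The Fos call held in all 16 fits that left out 1 library (0.96 to 1.12). It was lost in males alone (1.12), in females alone (0.95) and in 1 fit of all 48 libraries (1.05, adjusted p = 0.463, beside 0.0216% of all genes called higher). Endothelial markers averaged 4.64 to 5.41 log2 CPM in deletion striatum and 4.43 to 4.98 in wild-type striatum, and microglial markers 4.72 to 5.55 in deletion striatum and 4.35 to 5.08 in wild-type striatum. Blood markers, of which 5 of 5 were detected in every library, averaged 0.89 to 5.63 log2 CPM in deletion striatum (mean 2.98) and 1.28 to 2.92 in wild-type striatum (mean 2.11), with summed levels of 14.0 to 370 CPM in deletion animals and 18.3 to 65.3 CPM in wild type. Other lists had lower means in deletion than in wild-type striatum. These were choroid plexus and ependymal (1.92 against 2.99), cortical (2.77 against 3.65), astrocyte (7.30 against 7.34) and oligodendrocyte markers (8.58 against 8.63). The remaining lists had higher means in deletion striatum, among them neuron markers (9.37 against 9.31). The part of any of these markers in the Fos result was not tested. In cortex Fos was at 15.3, 32.1 and 89.2 CPM in deletion animals against 15.4, 25.3 and 40.9 CPM in wild type (0.68 ± 0.36, adjusted p = 0.965). In cerebellum it was at 11.6, 30.2 and 83.6 CPM in deletion animals against 7.17, 24.6 and 35.3 CPM in wild type (0.90 ± 0.40, unadjusted p = 0.0370), and neither was called.

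Upstream of Ras, 0 of 16 receptor tyrosine kinase genes were called in any tissue. Their median log2 fold change was 0.12 in cortex, -0.08 in striatum and 0.01 in cerebellum. The smallest p-values in cortex belonged to Pdgfrb, a PDGF receptor of pericytes (-0.14 ± 0.07), and Erbb4, a neuregulin receptor (0.54 ± 0.29). In striatum they belonged to Fgfr1 (-0.20 ± 0.12) and Erbb2 (-0.27 ± 0.18), and in cerebellum to Fgfr1 (-0.15 ± 0.08) and Erbb3 (0.27 ± 0.18). Of 18 genes for adaptors and Ras exchange factors, 0 were called, with medians of 0.08, -0.06 and 0.04. The nearest were Shc3 (0.51 ± 0.37) and Gab2 (0.22 ± 0.16) in cortex, Shc2 (-0.12 ± 0.08) and Rasgrp2 (0.49 ± 0.37) in striatum, and Rasgrp3 (0.29 ± 0.20) and Rasgrf1 (0.25 ± 0.18) in cerebellum. None of these values passed the test.

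Of 8 genes for Ras GTPase-activating proteins, which switch Ras off, 0 were called, with medians of 0.09 in cortex, -0.12 in striatum and -0.07 in cerebellum. Rasal1 was at 48.3, 54.9 and 82.5 CPM in deletion striatum against 60.9, 81.0 and 106 CPM in wild-type striatum, with overlap (-0.42 ± 0.14; edgeR unadjusted p = 0.00988, not called). Rasa3 had 0.09 ± 0.07 in cortex, -0.10 ± 0.08 in striatum and -0.14 ± 0.16 in cerebellum, Rasa1 had 0.33 ± 0.28 in cortex, and Dab2ip had -0.28 ± 0.19 in cerebellum. Among the 21 kinases of the cascade and their direct regulators, Mapk3 was the only call, and the other 20 had log2 fold changes between -0.16 and 0.22 in cortex, -0.36 and 0.15 in striatum, and -0.21 and 0.11 in cerebellum.

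Of the MAP kinase phosphatases, 0 of 15 were called in cortex and striatum and 0 of 13 in cerebellum, with medians of 0.03 in each tissue. Dusp2 had -0.44 ± 0.20 in cortex (unadjusted p = 0.0464) and 0.22 ± 0.20 in striatum, and Dusp10 had -0.19 ± 0.16 in cortex. Dusp1, an immediate early phosphatase, had 0.48 ± 0.25 in striatum and 0.52 ± 0.26 in cerebellum, where Ptpn5, the striatum-enriched phosphatase STEP, had 0.53 ± 0.33. Of the 7 Sprouty and Spred genes 0 were called (medians 0.09, 0.04 and -0.06). Beside Spry2 and Spry4, the nearest were Spry3 in cortex (0.13 ± 0.13) and Spred2 and Spred3 in striatum (-0.17 ± 0.17 and -0.12 ± 0.13). None of these passed the test.

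Downstream, 0 of 16 effector kinases and transcription factors were called, with medians of 0.10 in cortex, -0.01 in striatum and -0.03 in cerebellum. Mknk2 (0.15 ± 0.09) and Elk3 (-0.14 ± 0.09) had the smallest p-values in cortex, Elk1 (-0.27 ± 0.17) and Elk3 (-0.16 ± 0.10) in striatum, and Rps6ka1 (-0.32 ± 0.21) and Elk1 (-0.27 ± 0.23) in cerebellum. Of the 20 ERK output genes tested, Fos in striatum was the only call, and the medians were 0.09, 0.09 and 0.08 beside medians of all genes tested of 0.0038, -0.0060 and -0.0050. Etv1 had 0.39 ± 0.26 in cortex. Fosl2 was at 6.78, 14.5 and 23.0 CPM in deletion cerebellum against 5.54, 9.55 and 13.7 CPM in wild-type cerebellum (0.71 ± 0.25; unadjusted p = 0.0122). It was not called, and the groups overlapped.

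The parallel MAP kinase modules gave no call either. Of 12 other MAP kinases, Mapk12 and Mapk11, which encode p38 kinases, had -0.28 ± 0.19 and -0.28 ± 0.22 in cortex. Mapk13 had -0.78 ± 0.37 in striatum (unadjusted p = 0.0490), at under 1 CPM in every library there, and 0.42 ± 0.39 in cerebellum. Mapk15 had -0.55 ± 0.28 in striatum, and Mapk7, which encodes ERK5, had -0.23 ± 0.18 in cerebellum. Of 5 other MAP kinase kinases, Map2k6 had 0.21 ± 0.15, -0.05 ± 0.14 and 0.13 ± 0.11 in cortex, striatum and cerebellum, Map2k5 had -0.11 ± 0.11 in cortex, and Map2k7 had -0.11 ± 0.07 in striatum and -0.13 ± 0.07 in cerebellum.

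Over all listed genes, 85 of 131 had a log2 fold change above 0 in cortex (median 0.055), 54 of 131 in striatum (median -0.04) and 62 of 129 in cerebellum (median -0.0049). The gene length score stood lower in deletion than in wild-type cortex by medians (-0.0039 against 0.18) and higher in deletion than in wild-type striatum (0.01 against -0.19). Its part in these splits was not tested.

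Across wild-type tissues, the lists were described by their counts and medians, and no test compared the lists. Of 15 MAP kinase phosphatase genes, 0 were higher and 7 lower in striatum than in cortex (median log2 fold change -0.72), and 4 were higher and 9 lower in cerebellum than in cortex (median -0.85). Of 20 ERK output genes, 1 was higher and 7 lower in striatum than in cortex (median -0.36), and 4 were higher and 9 lower in cerebellum than in cortex (median -0.37). Of the 21 cascade kinases and regulators, 1 was higher and 2 were lower in striatum than in cortex (median -0.14). In the same comparison, 3 of 18 adaptor and exchange factor genes were higher and 0 lower (median 0.22). These counts stand beside 9.95% of all genes called higher and 8.67% called lower in striatum relative to cortex, and 24.2% higher and 24.7% lower in cerebellum relative to cortex. The tissues came from the same animals, and with the animal as a replicate block the counts between striatum and cortex were larger: 1 higher and 5 lower of the cascade genes, 7 higher and 0 lower of the adaptor genes, 1 higher and 10 lower of the ERK output genes, and 1 higher and 8 lower of the phosphatase genes, beside 15.6% of all genes called higher and 14.8% called lower.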

How the data were processed

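The deposited values are raw read counts, 1 whole number for each Ensembl gene and library. Per the labels' protocols, a stranded mRNA kit and 1 Illumina instrument type were used. The submitters' processing notes list STAR 2.4.2a, SAMtools, Picard and FastQC 0.10.1, and builds GRCm38 and mm8 are named without their role. The sources used here do not say how reads were counted, or whether by strand. The 92 ERCC spike-ins (0.0614 to 1.09% of a library's counts) name no gene and entered neither library sizes nor tests. Symbols, exon lengths and coordinates came from GENCODE vM21, which matched 46574 of 47069 identifiers, the other 495 holding 0.0580% of counts.

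In each tissue, 16 libraries were fitted with edgeR 4.0.16 (R 4.3.3; TMM, filterByExpr by genotype, robust quasi-likelihood, sex and genotype), adjusted over all genes tested. Tests were 2-sided, an SE is the log2 fold change over the square root of F, and intervals are 95%. Effects by tissue came from 1 fit of 48 libraries, and tissue levels from the 24 wild-type libraries with sex as a term. Neither had a term for the animal, which was added only in the alternative with the animal as a replicate block. DESeq2 1.42.0 was an alternative. The fits within 1 tissue were also run on simulated counts with the same dispersion for every gene. Those counts had no length axis, dissection differences or shared animals, so the run cannot show how the fits handle these. The gene length score and the first principal component were chosen as covariates after seeing the data. Intervals of fits within 1 tissue cover the spread between animals, while fits over tissues without an animal term treat libraries of 1 animal as independent. The marker levels are means of log2 CPM (prior count 2).

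The 8 members, the 10 pathway lists and the marker lists were chosen with earlier results of these data known. Named by rule were the members, each called pathway gene, in lists with no call the 2 genes of smallest p, and the 5 genes of mean CPM of at least 1 outside the stretch whose deviations correlated best with those of Mapk3. One further gene of the rule is not reported here. Same-numbered libraries come from 1 animal per the labels. The median correlation of their deviations was 0.439 for striatum and cortex, 0.495 for cerebellum and cortex and 0.257 for cerebellum and striatum, against -0.07, -0.01 and -0.05 for other animals of the same group.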

Additional observations from a re-analysis of the deposited data

How the results depend on the processing

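Mapk3 kept its direction under every alternative tried. Its log2 fold change over fits that left out 1 library was -0.88 to -0.65 in cortex (never called), -0.96 to -0.82 in striatum and -1.01 to -0.85 in cerebellum (called in 16 of 16 in both). Mapk3 in cortex was called in 1 fit of all 48 libraries (-0.76, adjusted p = 0.0402), which had no term for the animal. It was called there in no other alternative (DESeq2 adjusted p = 0.236). With 4 animals per genotype, the calls of Mapk3 were lost in striatum in males (-0.93) and females (-0.91) and in cerebellum in males (-0.98) and females (-0.91). The count of other members called was 0 of 7 in every tissue under every alternative. With the animal as a replicate block, Dusp6 between cerebellum and striatum was -0.56 (adjusted p = 0.0813) and Spry2 between cerebellum and cortex -0.30 (adjusted p = 0.0438). The block changed no other call of a member. Dusp6 between cerebellum and striatum also lost its call with RLE factors (-0.59) and with no filter on low counts (-0.57).

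Members that were not called changed sign in some settings, and the cause was not tested. In males alone these were Map2k2 (0.010) and Etv5 (0.019) in cortex, and Map2k1 (0.067), Braf (0.00055) and Etv5 (0.079) in striatum. In females alone they were Map2k2 (-0.023), Dusp6 (-0.49), Spry2 (-0.072) and Spry4 (-0.023) in striatum, and Map2k2 (-0.030), Braf (0.038), Dusp6 (-0.032) and Etv5 (-0.089) in cerebellum. With the dissection marker level as a covariate (striatal markers in cortex and striatum) they were Etv5 in cortex (0.064) and Dusp6 (-0.13) and Spry2 (-0.15) in striatum. With the first principal component as a covariate, chosen after seeing the data, they were Map2k2 (0.075) and Braf (-0.041) in cortex, Braf in striatum (0.017), and Map2k2 (-0.077) and Braf (0.080) in cerebellum. With the gene length score they were Map2k2 (0.042) and Braf (-0.0097) in cortex, Braf in striatum (0.018) and Map2k2 in cerebellum (-0.0034). Map2k1 in striatum was 0.015 with no filter on low counts, 0.045 without the library of more thalamic than striatal signal and 0.0015 in 1 fit of all libraries, and Dusp6 in striatum was -0.058 without the sex term.

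Leaving out 1 library gave, in cortex, -0.023 to 0.19 for Dusp6 and -0.081 to 0.062 for Etv5. In striatum it gave -0.049 to 0.050 for Map2k1, -0.062 to 0.18 for Map2k2, -0.15 to 0.021 for Braf, -0.22 to 0.16 for Dusp6 and -0.16 to 0.21 for Spry2. In cerebellum it gave -0.059 to 0.12 for Map2k2 and -0.19 to 0.10 for Braf. With Spearman's in place of Pearson's correlation, 4 of the 5 genes most like Mapk3 were shared, and Slc25a10 entered. The lowest count of any member in a library was 282 (Dusp6 in striatum).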
